A study of Rattus norvegicus with 7 samples.

Results

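Gene expression after 6 h of 2 mM NaF was compared with 6 h of vehicle in rat oral epithelial ROE2 cells, through the difference of the log2 signal of the NaF 6 h array and that of the vehicle 6 h array. A probe set is a group of short probes that reports the transcript of a gene. Of the 31099 probe sets on the array, 9382 were described here, those with 1 gene symbol whose signal reached log2 7 on at least 1 of the 6 h arrays. They named 7591 genes. Where a gene had several such probe sets, the one with the highest mean signal over the 7 arrays stands for it. The probe sets nearest the limit were those of Fam204a (6.44 in vehicle and 7.001 with NaF) and Aloxe3 (5.93 and 7.001) on its inner side and Vamp2 (6.33 and 6.999) and Rbks (6.76 and 6.998) on its outer side.

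ROE2 is an immortalized line from the tongue epithelium of 18-day-old fetal Wistar rats that carry a temperature-sensitive SV40 large T-antigen. All cells of the series, treated or not, therefore carried this viral oncogene. Cells received medium with 2 mM NaF for 3, 6 or 12 h, or medium with vehicle (sterilized water) for the same times, and a further control received vehicle and is the 0 h sample in the methods. Each of these 7 conditions was measured on 1 Affymetrix Rat Genome array that held RNA pooled from 3 independent experiments, so neither 6 h condition had a replicate array. The spread among the 4 vehicle arrays served as the noise scale, and the NaF 6 h array was assumed to vary like them.

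Immediate early genes encode transcription factors and feedback regulators that cells switch on from existing factors when a growth factor, a cytokine or a stress reaches them, and many of their transcripts are short-lived. Stress in the endoplasmic reticulum (ER) or a shortage of amino acids slows translation through phosphorylation of eIF2-alpha, which favours translation of Atf4. Atf4 and its target Ddit3 (CHOP) switch on genes of amino acid supply, feedback and cell death, while the Atf6 and Xbp1 branches switch on ER chaperones. Genes of mitosis are switched on late in the cell cycle, largely through the CHR and CCAAT elements of their promoters.

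After 6 h of NaF, 15 of 25 immediate early transcription factor genes, 13 of 22 targets of Atf4 and Ddit3, 5 of 16 cytokine genes and 4 of 7 genes of the EGF family rose in the limma test. Falls were found in 20 of 33 mitosis genes, 8 of 27 genes of the nuclear lamina and pore and 6 of 16 Wnt and Notch genes. With 1 probe set per gene, the tumour necrosis factor gene Tnf had the largest rise, by 4.13 on the log2 scale (17.5-fold), from a vehicle 6 h signal of 5.55 that was close to the array median. B3galnt1, a glycosyltransferase gene, had the largest fall, by 2.48 on the log2 scale (5.58-fold). By limma against the 4 vehicle arrays (adjusted p under 0.05), 778 of the 9382 probe sets (8.29%) were higher and 1287 (13.7%) lower. These stood for 624 genes higher (8.22%) and 1093 genes lower (14.4%). At least 2.5-fold, the factor of the study's methods, separated the 6 h arrays for 104 probe sets higher (1.11%) and 114 lower (1.22%). Both the test and 2.5-fold were passed by 86 genes that rose and 92 that fell. The calls rested on the vehicle arrays used. Without the vehicle 0, 3, 6 and 12 h array in turn, 488, 478, 0 and 67 probe sets were higher and 1009, 799, 0 and 174 lower. At an unadjusted p under 0.05 there were 3559 probe sets in the fit without the vehicle 6 h array, whose smallest adjusted p was 0.0618, and 4273 in the fit with all arrays. The 4273 of 9382 count both directions and are the share to set beside list counts at an unadjusted p. A limma fit limited to probe sets that reached log2 7, added after the data were seen, gave 1616 higher and 2049 lower, and 1001 and 1495 without the vehicle 6 h array.

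At least 4-fold changes were found in 32 genes upward and 5 downward, and at least 8-fold changes in 10 genes upward and 0 downward. At 2-fold, 158 genes were higher and 221 lower. Among genes that reached log2 7 on both 6 h arrays, counted after the data were seen, 14 were higher and 2 lower by at least 4-fold, and 2 and 0 by at least 8-fold. Of the 86 rises, 32 started below log2 7 on the vehicle 6 h array and were described through the NaF array alone, and of the 92 falls, 44 ended below log2 7 on the NaF array. The background signal of the array limits folds of such genes from below. The SD of the difference over the 7591 genes was 0.479, against 0.132, 0.124 and 0.0946 for the vehicle 0, 3 and 12 h array minus the vehicle 6 h array. Between vehicle arrays 0 of these genes passed 2.5-fold. The NaF 6 h signal of each of the 178 genes past both thresholds lay outside the range of the 4 vehicle arrays. Their choice against the same arrays made this nearly certain.

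The arrays were on 1 scale, with medians of 5.32 to 5.35. The median log2 signal of 22 epithelial genes on the vehicle 6 h array was 11.09. Gapdh, the reference of the study's qPCR, was measured by control probe sets, and its 3′ probe set read 13.26, 13.18, 13.24 and 13.26 in vehicle at 0, 3, 6 and 12 h and 13.28, 13.34 and 13.27 with NaF at 3, 6 and 12 h. RNA quality was followed through beta-actin, whose 3′ probe set exceeded its 5′ probe set by 1.53 on the vehicle 6 h array and 1.77 on the NaF 6 h array, within the 1.53 to 2.83 of the vehicle arrays.

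Among the 15 largest rises were the transcription factor genes Csrnp1, Egr2, Atf3, Nr4a3, Fos, Fosb and Ddit3, the cytokine genes Tnf, Tslp and Il6, the MAP kinase phosphatase gene Dusp1 and the bradykinin receptor gene Bdkrb2. The log2 signal of Tnf in vehicle at 0, 3, 6 and 12 h was 5.99, 6.47, 5.55 and 5.25, and with NaF at 3, 6 and 12 h it was 8.99, 9.69 and 8.30. Its lowest NaF array was above its highest vehicle array. The NaF 6 h array exceeded the mean of the vehicle arrays by 3.87 ± 0.47 (SE, limma adjusted p = 0.0150). Csrnp1, a nuclear protein gene responsive to axin, read 6.39, 6.88, 6.40 and 6.37 in vehicle and 9.13, 10.09 and 9.66 with NaF. All NaF arrays were above all vehicle arrays (vehicle SD 0.248), by 3.58 ± 0.23 at 6 h (SE, limma adjusted p = 0.0055). Bdkrb2, through which bradykinin raises cytosolic calcium, read 5.17, 5.56, 4.94 and 5.21 in vehicle and 6.75, 8.32 and 7.41 with NaF, highest at 6 h. Tslp, an epithelial cytokine that acts on dendritic cells, rose by 2.90 from a vehicle 6 h signal of 5.27.

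Several of these rises need their probe sets beside them. Itsn1, an endocytic scaffold gene, rose by 3.31 on its chosen probe set, whereas 2 others below the limit read 5.61 and 6.80 in vehicle and 5.87 and 6.81 with NaF at 6 h. Other probe sets below the limit also moved less. At 6 h, that of Tnf went from 5.34 to 6.28, that of Fos from 4.2 to 4.25 and that of Egr2 from 4.28 to 4.92. Those of Bdkrb2 went from 4.48 to 6.78 and from 3.97 to 4.17. Nr4a3 rose by 3.09, and another of its probe sets went from 3.77 to 8.53, a difference of 4.76 that exceeded that of Tnf. The histone gene H4cl1 rose by 2.80, and the histone genes Hist4h4, H4f3, H2ac25 and H3c1, named after their values were seen, rose by 2.78, 1.93, 1.76 and 1.38. Histone genes are near-identical copies, so the signal could not be assigned with certainty to 1 of them. The uncharacterized gene LOC102549836 rose by 3.63. For all 15 of these genes the NaF arrays of 3 and 6 h were above every vehicle array, and for 14 the NaF 12 h array was too, with Fosb as the exception. Of the 15 largest falls, all were below every vehicle array at 3 and 6 h of NaF and 14 at 12 h, with Tfap4 as the exception. The 6 h part of these counts of rises and falls followed from the choice of the genes at 6 h. After B3galnt1 the falls were led by Dact2, Lmnb1, Bhlhe41 and Espl1. B3galnt1 read 9.85, 10.03, 10.12 and 10.06 in vehicle and 9.06, 7.64 and 8.52 with NaF, lowest at 6 h. Efna4, an ephrin ligand, fell by 1.85 and Maf, a bZIP transcription factor, by 1.96. Rnf145, a ubiquitin ligase of the ER membrane, fell by 1.85, Cbr3, a carbonyl reductase, by 1.80, Nav2, a cytoskeletal gene, by 1.92 and Mfsd9, of the major facilitator family, by 1.84.

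By limma, 8.22% of all genes described rose and 14.4% fell. Of 25 immediate early transcription factor genes described, 15 rose, 1 fell and 9 did not pass, with a median difference of 1.36 against 0.00 over all 7591 genes. The risers were Csrnp1, Egr2, Atf3, Nr4a3, Fos, Fosb, Egr4, Fosl1, Egr1, Ier2, Maff, Nr4a2, Mafk, Junb and Ier5. Of these, Csrnp1, Egr2, Nr4a3, Fos, Fosb, Egr4 and Nr4a2 were below log2 7 on the vehicle 6 h array. They were described through the NaF array alone and could differ only upward, which favours the count and the median. Egr2, a zinc finger factor, read 5.17, 5.43, 5.10 and 4.94 in vehicle at 0, 3, 6 and 12 h and 9.92, 8.68 and 6.10 with NaF at 3, 6 and 12 h. All NaF arrays were above all vehicle arrays, with the highest signal at 3 h and the lowest at 12 h. Fos, a subunit of AP-1, read 5.81, 6.58, 6.00 and 6.06 in vehicle and 10.33, 9.03 and 7.93 with NaF, in the same order of times. Fosb, a further AP-1 subunit, read 4.69, 4.66, 4.30 and 4.12 in vehicle and 8.43, 7.26 and 4.69 with NaF, so its NaF 12 h array was back at the highest vehicle array. Atf3, a stress-induced bZIP factor, read 7.78, 8.04, 7.46 and 7.41 in vehicle and 11.23, 10.96 and 9.97 with NaF. Its difference at 6 h was 3.50, and 3.28 ± 0.27 from the vehicle mean (SE, limma adjusted p = 0.0075). Not every member of the class moved. Jun, Myc and Srf had differences of 0.53, 0.05 and -0.08 and did not pass, and Klf6 fell by 0.62.

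Of 8 genes of MAP kinase feedback inhibitors, Dusp1, Errfi1 and Dusp5 rose, 5 did not pass and 0 fell by limma (1 at an unadjusted p under 0.05). The shares over all genes were 8.22% higher and 14.4% lower. Dusp1, a phosphatase of nuclear MAP kinases, read 7.54, 7.71, 7.20 and 7.21 in vehicle and 10.47, 10.40 and 9.44 with NaF. Errfi1, an inhibitor of the EGF receptor, rose by 2.24, and Dusp5, an ERK phosphatase, by 2.16. Dusp6 had a difference of 0.91 with a vehicle SD of 0.296 and did not pass. Of 7 EGF family genes, the ligand genes Hbegf, Areg, Ereg and Nrg1 rose by 2.12, 2.06, 1.37 and 1.06, and the receptor gene Erbb2 fell by 1.20. Areg (amphiregulin) read 9.83, 9.90, 9.59 and 9.50 in vehicle and 10.94, 11.65 and 11.07 with NaF, with its highest signal at 6 h. The receptor gene Egfr had a difference of -0.55 and did not pass.

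Promoters of the risers are shown for the motifs that cAMP, serum and stress pathways act on. The cAMP response element (CRE, TGACGTCA on either strand) was found in the 250 bases upstream of 10 of the 72 rising genes with a promoter in RefSeq (13.9%), of 2 of 71 falling genes (2.82%), of 3.34% of all genes described and of 1.7% of 27457 promoters of the rat. The CArG box of serum response factor was found in 6.94% of the risers, 2.82% of the fallers, 1.3% of the genes described and 1.5% of all promoters. The AP-1 motif TGANTCA was in 5.56% of the risers, 2.82% of the fallers, 4.37% of the genes described and 6.36% of all promoters. These are counts of letters, not of bound factors, and the median GC content of the windows was 59.2% in risers, 63.6% in fallers and 60.8% in the genes described. The following genes were chosen because they hold the CRE or the CArG box, which is in capitals, with the AP-1 motif of Rcan1 and the NF-kB site of Il6 also in capitals. All stretches run 5′ to 3′ on the strand of the gene and lie upstream of its start (RefSeq, GRCr8).
Dusp1 (chr10:17184709-17184788, + strand): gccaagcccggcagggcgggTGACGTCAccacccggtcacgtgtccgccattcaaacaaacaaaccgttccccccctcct
Ppp1r15a (chr1:105139603-105139682, - strand): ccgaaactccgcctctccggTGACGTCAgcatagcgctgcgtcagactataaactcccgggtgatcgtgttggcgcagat
Areg (chr14:17265673-17265752, - strand): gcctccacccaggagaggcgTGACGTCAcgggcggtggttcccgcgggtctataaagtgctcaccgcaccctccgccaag
Rcan1 (chr11:45118352-45118463, - strand): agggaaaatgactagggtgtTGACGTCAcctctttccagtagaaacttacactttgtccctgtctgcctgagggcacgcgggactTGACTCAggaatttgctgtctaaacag
Il6 (chr4:5894614-5894757, - strand): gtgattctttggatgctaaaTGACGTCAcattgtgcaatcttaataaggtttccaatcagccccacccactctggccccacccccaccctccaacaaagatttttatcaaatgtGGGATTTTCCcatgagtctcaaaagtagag
Egr2 (chr20:21054465-21054544, - strand): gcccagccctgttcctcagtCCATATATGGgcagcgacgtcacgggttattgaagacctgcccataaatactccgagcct
Dusp5 (chr1:262543672-262543751, + strand): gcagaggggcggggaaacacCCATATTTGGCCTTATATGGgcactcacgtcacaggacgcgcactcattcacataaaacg
The CRE began 124 bases upstream of the start in Dusp1, 66 in Ppp1r15a, 91 in Areg, 207 in Rcan1 and 162 in Il6. In Dusp5, 2 CArG boxes followed each other directly. The other CRE holders among the risers, all read from the same windows, were Epha2, LOC102547700, Slc25a25, Ier2 and Maff.

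Cytokine genes rose in part, and the counts here are given against 8.22% of all genes higher and 14.4% lower. Of 16 described, Tnf, Tslp, Il6, Il23a and Cxcl12 rose, 0 fell by limma (2 at an unadjusted p under 0.05), and the median difference was 0.72. Tnf, Tslp and Il6 were below log2 7 on the vehicle 6 h array. They were described through the NaF array alone and could differ only upward. The median of this list varied more over the vehicle arrays than that of any other list (SD 0.514). Il6, an inflammatory cytokine, read 4.11, 4.30, 4.15 and 3.75 in vehicle and 5.51, 7.04 and 9.61 with NaF at 3, 6 and 12 h. The NaF arrays were higher at each later time, and the 6 h signal was just above the limit of log2 7. The neutrophil chemokine Cxcl2 read 9.19, 9.45, 8.25 and 7.73 in vehicle and 8.83, 10.56 and 11.65 with NaF. Its vehicle arrays spread widely (SD 0.804), and its difference of 2.31 did not pass (limma adjusted p = 0.18). Il1a, Csf2 and Ccl7 had differences of 1.63, 1.27 and -1.03 and did not pass. Of 12 genes of NF-kB subunits and feedback, the adhesion molecule Icam1 and the inhibitor Nfkbib rose and Tnip1 fell, a share of falls below that of all genes. Relb, Nfkb1 and Nfkb2 had differences of 0.85, 0.84 and 0.73 and did not pass, and Nfkbia one of 0.09. The median of this list was 0.62.

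Targets of Atf4 and Ddit3 were higher at 6 h, whereas most ER chaperone genes did not pass. Of 22 target genes, 13 rose, 1 fell (Slc38a2) and 8 did not pass, and the median was 0.57. Ddit3 read 9.09, 9.14, 9.16 and 9.02 in vehicle at 0, 3, 6 and 12 h and 11.03, 11.99 and 12.39 with NaF at 3, 6 and 12 h. The vehicle arrays lay close together (SD 0.0610), and the NaF 6 h array exceeded their mean by 2.89 ± 0.08 (SE, limma adjusted p = 0.0053). Atf4 itself read 12.02, 11.90, 11.95 and 11.94 in vehicle and 12.48, 12.97 and 13.35 with NaF, a 2.03-fold rise at 6 h. Ppp1r15a, which brings a phosphatase to eIF2-alpha, rose by 2.55, and Trib3, a pseudokinase that restrains Ddit3 and Atf4, by 2.14. Gdf15, a stress cytokine, rose by 1.75 from a vehicle 6 h signal of 5.65, and so was described through the NaF array alone. Sesn2 rose by 1.12, while the serine synthesis genes Psat1 and Phgdh had differences of -0.12 and -0.06 and did not pass. Of 18 aminoacyl-tRNA synthetase genes, Cars1 rose by 0.66 and the other 17 did not pass. Over all genes 8.22% rose and 14.4% fell, so the share of rises among the synthetases was not above that of all genes.

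The composite site of Atf4 and C/EBP factors, searched as TGATGNAA on both strands, was found upstream of 3 of the 12 rising Atf4 and Ddit3 targets with a promoter (25.0%), in 1.69% of the genes described and in 3.27% of all promoters. The target gene Slc7a1 and the synthetase genes Aars1, Iars1, Mars1, Nars1 and Tars1 held it too and did not pass. The site was therefore not particular to risers. Trib3 and Chac1 (a glutathione-degrading enzyme that rose by 1.43, named after its values were seen) are shown with the site in capitals, where it reads on the opposite strand.
Trib3 (chr3:161275534-161275613, - strand): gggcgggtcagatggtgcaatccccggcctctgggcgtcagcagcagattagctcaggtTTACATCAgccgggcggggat
Chac1 (chr3:126795944-126796023, + strand): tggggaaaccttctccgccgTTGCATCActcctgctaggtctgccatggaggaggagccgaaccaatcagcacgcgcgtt
The match began 21 bases upstream of the start in Trib3 and 167 in Chac1.

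Of 27 genes of ER chaperones and ER-associated degradation, 3 rose (Herpud1, Atf6 and Sdf2l1), 0 fell and 24 did not pass limma, with a median of 0.13. Of all genes 8.22% rose and 14.4% fell, so the share of rises was near that of all genes. At an unadjusted p under 0.05, 10 were higher and 0 lower. Of all 9382 probe sets, 4273 passed this limit in either direction. With both directions together, the share of the list was therefore not above that of all probe sets. Hspa5 (BiP), the main ER chaperone of the Hsp70 family, read 11.87, 12.08, 12.28 and 11.85 in vehicle and 12.06, 12.52 and 13.70 with NaF. At 6 h it stood 0.24 above the vehicle 6 h array, which was the highest vehicle array, and its difference did not pass (limma adjusted p = 0.18). At 12 h it was 1.85 above its vehicle array. Herpud1, which takes part in ER-associated degradation, read 9.06, 9.27, 9.27 and 8.98 in vehicle and 9.25, 10.23 and 12.01 with NaF. It was within the vehicle range at 3 h and above it at 6 h and 12 h. Xbp1, Hsp90b1 and Calr had differences of -0.31, 0.03 and 0.23 and did not pass.

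Of the 37 lists, that of mitosis genes held the most falls. Of 33 genes, 20 fell, 0 rose and 13 did not pass limma, against 14.4% of all genes lower and 8.22% higher. The median of the list was -0.70. At an unadjusted p under 0.05, 28 were lower and 0 higher. The difference was below 0 in 32 of them. Plk1, a kinase of mitotic entry and spindle assembly, read 9.03, 9.22, 9.29 and 9.40 in vehicle and 8.56, 7.33 and 8.38 with NaF at 3, 6 and 12 h. All NaF arrays were below all vehicle arrays, the 6 h array lowest, by 1.91 ± 0.15 below the vehicle mean (SE, limma adjusted p = 0.0072). Espl1 (separase), which cleaves cohesin, read 8.29, 8.50, 8.59 and 8.77 in vehicle and 7.71, 6.56 and 7.24 with NaF, again with the 6 h array lowest. Incenp, of the chromosomal passenger complex, fell by 1.49 and the kinetochore gene Cenpf by 1.44. Cdk1, Birc5, Nuf2 and Pttg1 had differences of -0.46, -0.25, -0.23 and 0.01 and did not pass. The vehicle signals of several of these genes drifted upward over time, as those of Plk1 and Espl1 did, and the median of the list had an SD of 0.156 over the vehicle arrays.

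The CHR (TTTGAA) was found in the 250 bases upstream of 8 of the 18 falling mitosis genes with a promoter (44.4%), of 9.9% of the genes described and of 16% of all promoters. The CCAAT box was found in 14 of the 18 (77.8%), against 36.5% and 34.3%. The mitosis genes Cdk1, Ccnb2, Ect2, Cdca8, Birc5 and Pttg1, which did not pass, also held both motifs. The difference was below 0 in 32 of the 33 mitosis genes, so the list held almost no genes that stayed level or rose. It could therefore not show whether either motif was particular to genes that fell. Of the 71 falling genes of all kinds, 9.86% held the CHR and 45.1% the CCAAT box, and of the risers 12.5% and 40.3%. Espl1, Hmmr (a spindle-associated hyaluronan receptor) and Ccnb1 (cyclin B1) are shown with both motifs in capitals, on either strand. Hmmr and Ccnb1, named after their values were seen, fell by 1.35 and 1.43.
Espl1 (chr7:135302596-135302675, + strand): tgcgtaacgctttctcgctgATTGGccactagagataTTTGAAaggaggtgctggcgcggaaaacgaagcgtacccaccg
Hmmr (chr10:25665236-25665463, - strand): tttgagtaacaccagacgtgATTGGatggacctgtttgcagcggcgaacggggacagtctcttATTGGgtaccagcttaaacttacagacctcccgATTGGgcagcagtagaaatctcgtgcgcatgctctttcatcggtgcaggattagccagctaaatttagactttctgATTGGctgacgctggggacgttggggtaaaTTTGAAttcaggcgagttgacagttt
Ccnb1 (chr2:33655248-33655327, - strand): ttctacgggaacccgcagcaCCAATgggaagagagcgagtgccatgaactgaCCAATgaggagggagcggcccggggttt
Hmmr held 4 CCAAT boxes and 1 CHR, with the CHR 46 bases upstream of the start. The Ccnb1 window held 2 CCAAT boxes and no TTTGAA.

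Fewer genes of DNA replication and of G1 control passed. Of 34 replication genes, 7 fell and 1 rose, with a median of -0.26. Of all genes 14.4% fell and 8.22% rose, so by limma the share of falls was somewhat above that of all genes. The difference was below 0 in 23 of the 34 and above 0 in 11. At an unadjusted p under 0.05, 17 were lower and 3 higher. Chaf1a, a histone chaperone of new DNA, fell by 0.95 and Fen1, a flap endonuclease, by 0.85. Pcna and Cdc45 had differences of -0.09 and 0.01 and did not pass. Of 17 genes of G1 cyclins, CDK inhibitors and E2F factors, 6 fell and 0 rose by limma (9 and 1 at an unadjusted p under 0.05). The 6 falls were of opposite roles. The cyclin genes Ccne2 and Ccne1 fell by 0.93 and 0.69 and the repressor gene E2f8 by 1.53, and the inhibitor genes Cdkn2d and Cdkn1b fell by 1.52 and 0.93. Cdkn1a (p21) had a difference of 0.19 and did not pass.

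Genes of the nuclear lamina and the nuclear pore fell in 8 of 27 cases, and 0 rose by limma (17 and 0 at an unadjusted p under 0.05). The shares over all genes were 14.4% lower and 8.22% higher. Lmnb1 (lamin B1), a filament of the inner nuclear membrane, read 11.51, 11.51, 11.44 and 11.63 in vehicle at 0, 3, 6 and 12 h and 10.84, 9.32 and 10.38 with NaF at 3, 6 and 12 h. It was a bright gene with closely spaced vehicle arrays (SD 0.0807), and its NaF 6 h array was the lowest of all 7, by 2.20 ± 0.09 below the vehicle mean (SE, limma adjusted p = 0.0053). Tmpo, a lamin-binding protein, fell by 1.52, the pore membrane gene Nup210 by 1.52 and Nup153, of the nuclear basket, by 1.03. Nup153 read 10.00 at 6 h and 10.99 at 12 h of NaF, the latter within the vehicle range of 10.99 to 11.14. Lmna (lamin A/C) and Lmnb2 had differences of -0.21 and 0.33 and did not pass.

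Receptors and inhibitors of developmental pathways were among the deepest falls. Of 16 Wnt and Notch genes, 6 fell and 1 (Rbpj) rose, against 14.4% of all genes lower and 8.22% higher. Dact2, an antagonist of Wnt and Nodal signalling, read 7.89, 8.10, 7.61 and 7.91 in vehicle and 6.00, 5.31 and 4.92 with NaF, lower at each later time. The Frizzled receptor genes Fzd2, Fzd1 and Fzd6 fell by 1.94, 1.63 and 0.63, the transcription factor gene Tcf7l2 by 1.28 and the Notch ligand gene Dll1 by 1.26. Of 21 TGF-beta and BMP genes, 5 fell and 2 rose, with a median of -0.04, and the share of rises was near the 8.22% of all genes. The BMP target genes Id2, Id4 and Id1 fell by 1.73, 1.23 and 1.12, while Id3 had a difference of -0.02. Id2 read 9.50, 9.55, 9.22 and 9.20 in vehicle and 8.34, 7.49 and 8.14 with NaF. The inhibitor gene Smad7 rose by 1.5, with NaF signals of 8.89, 8.87 and 7.58 at 3, 6 and 12 h.

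Bhlhe41, a repressor of the circadian clock, fell by 2.09, from 7.69 to 5.60 at 6 h. Of 12 clock genes, 5 fell (Bhlhe41, Tef, Bhlhe40, Csnk1d and Per2) and Nfil3 rose by 0.75, while Per1 had a difference of 0.27 and did not pass. Over all genes 14.4% fell and 8.22% rose, so the share of rises among clock genes was near that of all genes. Tfap4, a transcription factor, read 7.55, 7.90, 7.83 and 7.78 in vehicle and 6.91, 5.86 and 7.96 with NaF. It was the only 1 of the 15 largest falls whose NaF 12 h array was above the vehicle arrays. Among 17 genes that act on AU-rich and short-lived transcripts, 7 fell and 1 rose, a share of rises not above that of all genes. Zfp36 (tristetraprolin), which marks AU-rich transcripts for decay, rose by 2.04, and its signal was 6.84 in vehicle and 8.88 with NaF at 6 h. The falls were those of Tnrc6a, a partner of Argonaute, by 1.92, of the deadenylase complex genes Cnot2, Cnot7 and Pan2 by 0.85, 0.67 and 0.62, of the exonuclease gene Xrn1 by 0.73, and of Zfp36l1 and Hnrnpd by 0.55 and 0.53. Another Xrn1 probe set went from 6.80 to 7.12.

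Of 23 genes of the Bcl-2 family and caspases, 7 fell, 3 rose and the median was -0.01. The initiator caspase gene Casp2 fell by 1.23, Apaf1, of the apoptosome, by 0.99 and the inflammasome adaptor gene Pycard by 0.89. Bcl2l2, Casp4 and Birc2 rose by 0.80, 0.63 and 0.46. Of 17 p53 targets, Gdf15 and Sesn2 rose, which are Atf4 targets as well, and Bbc3 and Phlda3 fell by 0.83 and 0.62. For the p53 list, both counts were near the shares of all genes, 8.22% higher and 14.4% lower. The 7 falls among the 23 genes of the Bcl-2 family and caspases were a larger share than 14.4%. Mdm2 had a difference of 0.18 and did not pass.

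Other stress lists held passing genes in both directions or upward, which are given here against 8.22% of all genes higher and 14.4% lower. Of 17 heat shock genes, the co-chaperone genes Dnajb1 and Dnaja1 fell by 1.39 and 0.44 and Hsf2 by 0.77, while Hspb8 and the mitochondrial protease gene Lonp1 rose by 0.87 and 0.58. Dnajb1 read 10.72 to 10.89 in vehicle and 9.89, 9.41 and 9.94 with NaF, lowest at 6 h. Of 16 NRF2 targets, Sqstm1, Srxn1 and Txnrd1 rose by 0.66, 0.65 and 0.50, and Nqo1 had a difference of 0.02. Another Sqstm1 probe set read 9.11 in vehicle and 9.16 with NaF. Of 14 hypoxia genes, Vegfa, the vascular growth factor, rose by 1.96, and Egln3, Bhlhe40 and Egln1 fell.

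Some rises had few passing genes beside them in their list. Counts are given against 8.22% of all genes higher and 14.4% lower. Rcan1, an inhibitor of calcineurin, read 8.48, 8.26, 8.21 and 8.21 in vehicle and 9.47, 10.74 and 11.75 with NaF, higher at each later time. With Bdkrb2 and F2rl1 it was 1 of 3 risers among 19 genes of calcium signalling, of which Nfatc3 and Stim2 fell by 0.51 and 0.50. Of 13 genes of plasminogen activation and matrix metalloproteinases, 2 rose and 0 fell by limma (5 and 0 at an unadjusted p under 0.05). The difference was above 0 in 11 of them. Plaur, the urokinase receptor, rose by 2.10 and Timp1, a metalloproteinase inhibitor, by 1.03. Mmp13 and Plat had differences of 1.01 and 0.67 and did not pass. Plau, Mmp14 and Mmp9 had differences of 0.16, 0.03 and 0.20 and did not pass either. Of 10 genes of polyamine metabolism, Odc1 and Sat1 rose by 1.21 and 0.40 and Amd1 fell by 1.26. Odc1 and Amd1, both enzymes of polyamine synthesis, thus moved apart. Of 19 cholesterol synthesis genes, Hsd17b7 rose and Sqle and Fdft1 fell, and Idi1 and Insig1 had differences of 1.02 and 0.85 with vehicle SDs of 0.225 and 0.245 and did not pass. Another Hsd17b7 probe set read 7.53 in vehicle and 7.51 with NaF.

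The counts that follow are set against 8.22% of all genes higher and 14.4% lower. The 23 genes of cytosolic ribosomal proteins had differences from -0.02 to 0.16, and 0 of them passed. The 10 glycolysis genes lay between -0.19 and 0.26 and 0 passed. Both counts were by limma, with 1 gene of each list higher at an unadjusted p under 0.05, and the lists hold some of the brightest genes, with median signals of 13.34 and 12.52. Of 35 respiratory chain genes, Ndufs7 rose by 0.33 and Ndufc2 fell by 0.37, both smaller shares than over all genes. At an unadjusted p under 0.05, 10 of the 35 were higher and 2 lower. Of 36 ribosome biogenesis genes, Gnl3 rose by 0.61, and Nhp2 and Ubtf fell by 0.55 and 0.53. Of 9 reference genes, Tfrc rose by 0.29, and Tbp, a general transcription factor gene, had the largest difference, -0.65, and did not pass (limma adjusted p = 0.054).

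The epithelial identity of the line was visible on the 6 h arrays. Of 22 epithelial genes, 2 fell (the desmosomal gene Pkp2 by 0.51 and the tight junction gene Tjp1 by 0.34) and 0 rose by limma (5 and 0 at an unadjusted p under 0.05). Of all genes 14.4% fell and 8.22% rose, so these falls were not more frequent than over all genes. The basal keratin genes Krt5 and Krt14 had differences of 0.00, and Tp63, a basal epithelial factor, one of -0.47 that did not pass. Of 14 squamous differentiation genes, the cornified envelope genes Cnfn, Evpl and Ppl fell by 1.14, 0.75 and 0.57. Of 19 genes of integrins, laminins and matrix receptors, Cd44 and Sdc4 rose by 0.54 and 0.53, a share of rises near that of all genes. Few listed markers of other cell types reached log2 7, but some of those that did were bright. On the vehicle 6 h array, Cd14 read 10.06, Myh1 9.48 and Egfl7 7.26. Of 13 leukocyte genes listed, 1 was described, Cd14, which fell by 1.27. Of 16 skeletal muscle genes 1 was described, Myh1, with a difference of 0.97 that did not pass. On its other probe sets above the limit the differences were 1.16, 0.92, 0.90 and -0.22. The endothelial list gave Egfl7, with a difference of 0.00. The 4 mesenchymal genes described, Acta2, Tagln, Sparc and Vim, lay between -0.39 and 0.13 and did not pass. Their vehicle 6 h signals were 8.45, 7.82, 9.16 and 11.32, with Vim above the median of 11.09 of the epithelial genes.

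Set beside the other times, each against its own vehicle array, the 86 risers had median differences of 0.89, 1.75 and 1.88 in the order of the times, and 19 of them (22.1%) passed 2.5-fold at 3 h and 68 (79.1%) at 12 h. The 92 fallers had medians of -0.66, -1.49 and -0.95, and 11 (12.0%) passed 2.5-fold at 3 h and 31 (33.7%) at 12 h. For 36 of the risers and 76 of the fallers the difference was largest at 6 h. Since the genes were chosen at 6 h, their values there are favoured, and these counts are a description. Over the 7591 genes, 20 passed 2.5-fold upward and 28 downward at 3 h, and 168 and 153 at 12 h.

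The lists followed different courses. Their medians are favoured where genes entered through 1 of the 6 h arrays alone, as in the immediate early and cytokine lists. The median of the immediate early factors was 0.53, 1.36 and 0.62 at 3, 6 and 12 h, that of the Atf4 and Ddit3 targets 0.17, 0.57 and 1.26, and that of the ER chaperones -0.02, 0.13 and 1.08. Cytokines went from -0.21 over 0.72 to 1.58, aminoacyl-tRNA synthetases from 0.02 over 0.15 to 0.57 and ribosome biogenesis from -0.04 over -0.06 to 0.55. Mitosis genes stood at -0.25, -0.70 and -0.93, and the nuclear lamina and pore at -0.07, -0.30 and -0.10. In the same limma fit, the NaF 6 h array differed from the NaF 12 h array for 1728 genes. Against the NaF 3 h array it did so for 0 genes (smallest adjusted p 0.101), with 1768 genes at an unadjusted p under 0.05, so 0 genes were above or below both other NaF arrays at an adjusted p under 0.05. At an unadjusted p under 0.05, 139 probe sets were above and 479 below both.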

How the data were processed

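RNA of ROE2 cells was hybridized by the authors to Affymetrix Rat Genome 230 2.0 arrays after 3′ IVT labelling, and intensities were analyzed in GeneSpring GX. The deposited values are log2 signals per probe set. How the probes were summarized and the arrays normalized is not given in the sources used here. Array medians were nearly equal (5.32 to 5.35), and no further scaling was applied. Direction and scale followed from the single-colour log2 values. Depth has no meaning for arrays, whose number limits the precision: the median SE of a NaF 6 h difference was 0.109.

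Groups came from the sample labels, where the 0 h array is given as control. Gene symbols came from the GEO platform annotation, dated 2016. Of 31099, 57 were controls, 20826 had 1 symbol, 436 several and 9780 none, and genes were named from those with 1 symbol. The 31042 probe sets that were not controls were fitted with limma 3.58.1 under R 4.3.3, with its lmFit and eBayes steps (two-sided, Benjamini-Hochberg over all 31042). The 4 vehicle arrays formed 1 level and each NaF array its own, with 3 residual and 1.8 prior degrees of freedom. Nothing repeats a condition, so a p-value weighs a difference against how pooled vehicle arrays of different times vary. A gene passed at an adjusted p under 0.05 where its difference to the vehicle 6 h array had the same sign. Fits were tested on simulated data.

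Named genes were the 15 largest rises and 15 largest falls past both thresholds, the members of each list with the largest differences (at most 4), genes that peaked at 6 h (0 passed), Gapdh, Ddit3, Atf4, Atf3, Fos and Hspa5, and the genes nearest log2 7. Further genes of the lists, promoter holders and histone genes were named after their values were seen. The comparison, its members and the 37 lists were chosen with earlier results of these data known. Lists are described by counts and medians, with no test. Promoters were the 250 bases upstream in RefSeq (GRCr8), with 27457 genes after 6012 duplicate rows were dropped, and gave a window for 6446 of the 7591 genes. Alternatives were other filters, scalings, fold limits, fits and baselines, and each vehicle array left out. Detection calls were left aside. Tables were computed in Python 3.11.15 with pandas 2.3.3.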

Additional observations from a re-analysis of the deposited data

Results flagged for a closer look

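For 10 of the named genes among the 30 largest changes and the qPCR genes, the NaF 6 h array differed from the NaF 12 h array in limma (adjusted p under 0.05). Values are the NaF 6 h array minus the NaF 12 h array on the log2 scale, with both set against the same mean of the vehicle arrays, so a difference between the vehicle arrays of 6 and 12 h is not removed. Egr2 was higher at 6 h by 2.58 and Fosb by 2.57. Il6 had a difference of -2.57 and Hspa5 one of -1.18, both lower at 6 h than at 12 h. Falls that were deeper at 6 h were those of Tfap4 (-2.1), Plk1 (-1.06), Lmnb1 (-1.05), Tnrc6a (-1.0), Efna4 (-1.0) and B3galnt1 (-0.88). Each value compares 1 array with 1 array.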

How the results depend on the processing

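By limma, 778 probe sets were higher and 1287 lower. Leaving out 1 vehicle array gave 0 to 488 higher and 0 to 1009 lower, the lowest without the vehicle 6 h array. Of 107 named genes that passed, 107 lost the call without the vehicle 6 h array, 67 without that of 12 h, 24 without that of 3 h and 20 without that of 0 h, while 0 of 151 named genes changed direction under any alternative run. With all probe sets of a gene above the limit averaged, 10 of the 151 differences moved by more than the vehicle SD, such as Xrn1 to -0.21, Sqstm1 to 0.35 and Nr4a3 to 3.92. Adjustment over the 9382 probe sets alone gave 1293 higher. A fit over probe sets reaching log2 7, added after seeing the data, gave 1616 higher and 2049 lower, and 1001 to 1642 and 1495 to 2087 with 1 vehicle array left out. At 2-fold, 198 probe sets were higher and 278 lower, and past 3 SD of the vehicle arrays 2097 and 2472. Other baselines, filters and scalings kept the 2.5-fold and limma counts within 1.5 times. Quantile normalization gave 1 probe set above and 15 below both other NaF arrays, against 0 and 0. The largest move of a list median was 0.22, that of the skeletal muscle list, which held 1 gene, and 4 list medians changed sign. No paired analysis was possible because each condition had 1 array. The number of arrays limits every value, and genes below log2 7 on the vehicle array have folds limited by background signal. The causes of these shifts were not tested.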
